A study of Mus musculus with 6 samples.

Results

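The 10 genes described here are Wnt ligands and feedback genes of the mouse collecting duct line mpkCCD: the ligands Wnt9b, Wnt7b and Wnt4, the membrane ubiquitin ligases Rnf43 and Znrf3, the R-spondin receptor Lgr4, the intracellular feedback inhibitors Axin2 and Nkd1, and the transcription factors Lef1 and Tcf7. They were chosen by gene symbol, with results of this same comparison already known, so the values below describe the genes and no test was made over the set. Each symbol matched 1 of the 20896 transcripts listed, and all 10 were among the 16683 that passed the filter on low reads. Wnt9b and Rnf43 were the 2 of them with a higher level in every PKA dKO clone than in any control clone. The other 8 had overlapping groups. Of all genes tested, 5.15% had every dKO value above every control value and 5.67% had every dKO value below.

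There were 6 RNA libraries, 1 from each of 3 control clones and 3 clones labelled PKA dKO, all derived from the mpkCCDc11 subclone of mouse cortical collecting duct cells. PKA is protein kinase A, the kinase that vasopressin activates through cyclic AMP in this tissue. Every clone, control and dKO, was grown on a permeable support for 4 days in medium with 2% serum, insulin, dexamethasone, triiodothyronine, EGF, selenite and transferrin, and then kept for 3 days with 0.1 nM dDAVP, a vasopressin analog, without serum or hormones. Series and labels name CRISPR-Cas9 as the method but neither the edited genes nor what the control clones carry. With 1 library per clone, p-values measure the difference only against the scatter among clones, and traits that happen to be shared by the clones of a group cannot be told apart from the deletion.

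Wnt proteins are secreted, lipid-modified ligands that bind Frizzled receptors and the coreceptors LRP5 and LRP6, which stabilises beta-catenin and lets it act with TCF/LEF factors on target genes. Several targets feed back on the pathway. Axin2 scaffolds the complex that destroys beta-catenin, Nkd1 binds Dishevelled, and Rnf43 and Znrf3 remove Frizzled receptors from the membrane unless an R-spondin, bound to an LGR receptor, clears them in turn. In the kidney, Wnt9b from the ureteric bud and collecting duct induces nephron formation, Wnt4 acts downstream of it in the forming nephron, and Wnt7b from the duct shapes the medulla.

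Recovered depth was 28596444 to 42515838 reads per library. Prkaca, taken as a check of the label because it encodes a PKA catalytic subunit, had 75.8 to 133 CPM, reads scaled to a fixed library total, in control clones and 6.65 to 8.49 CPM in dKO clones. Prkacb, the gene of the other main catalytic subunit, had 109 to 138 and 99.1 to 105 CPM (log2 fold change -0.23, limma-trend adjusted p = 0.939), so a loss of its RNA was not seen. Control clone 1 and dKO clone 3 differed from the remaining 4 libraries in having 2443 and 2363 transcripts without a read, against 863 to 1045, and the first principal component (68.1% of variance) placed them at -91.7 and -76.8 against 20.9 to 74.1. The principal-cell markers fixed for the label summed to 1140 to 1737 CPM in the control group and 1230 to 1341 CPM in the dKO group. All 11 of 11 had a read in every library. This is a low bar, because 50.7% to 87.4% of olfactory and vomeronasal receptor transcripts also had a read, depending on the library. Aqp2 was at 1.82 to 3.39 CPM in dKO clones against 139.8 to 399 CPM in control clones. The marker sums hide shifts of single markers. At an unadjusted limma-trend p under 0.05, 1 of the 11 was higher and 3 were lower, 36.4% against 6.24% of all genes tested. All dKO values were below all control values for 27.3% and above for 9.09%, against 5.67% and 5.15%. Since these are bulk samples, fewer cells of a type and less RNA per cell cannot be told apart.

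The 10 genes covered a wide range of levels. On the scale of CPM per kilobase of transcript (RPKM), which allows levels of different genes to be compared, the order in control clones was Wnt7b (138 ± 13.8, SD, n = 3), Lgr4 (29.9 ± 3.20), Wnt4 (10.8 ± 0.36), Znrf3 (4.94 ± 0.44), Rnf43 (0.91 ± 0.24), Tcf7 (0.80 ± 0.27), Wnt9b (0.68 ± 0.42), Lef1 (0.47 ± 0.33), Nkd1 (0.28 ± 0.14) and Axin2 (0.17 ± 0.12). The ranges of the 4 highest genes did not overlap with one another or with the rest, whereas from Rnf43 down each gene overlapped with the next. In dKO clones the first 4 places and the last 3 were filled by the same genes in the same order. Wnt9b (2.33 ± 0.86) and Rnf43 (2.14 ± 0.42) came next there, overlapping with each other but with neither Znrf3 (4.69 ± 0.41) above nor Tcf7 (1.01 ± 0.33) below.

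**Figure D1:**
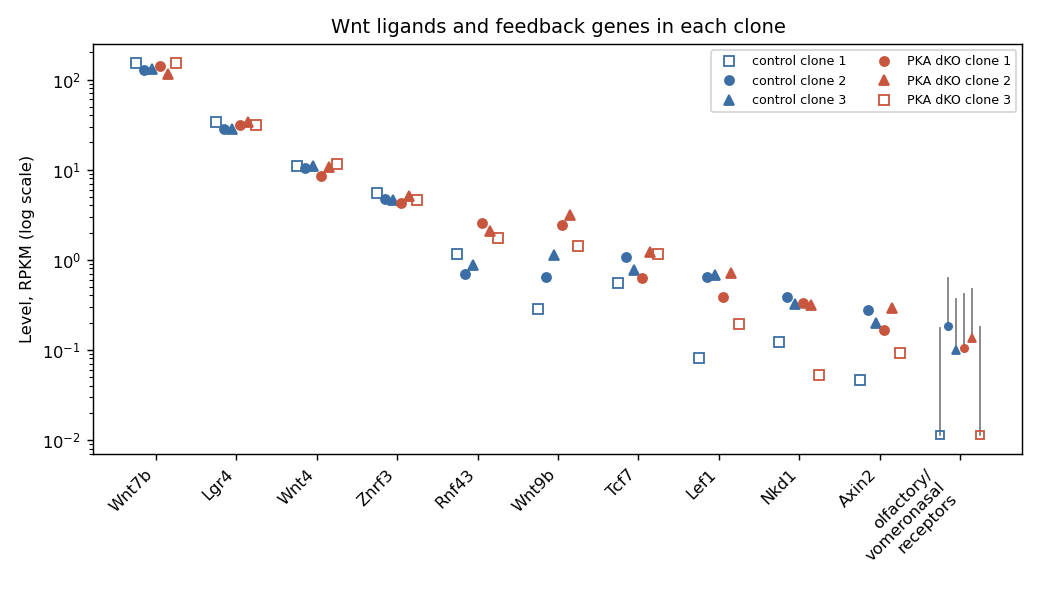
Level of each gene in each of 6 clones, in RPKM on a log axis; blue marks control clones, red marks PKA dKO clones, and open squares mark control clone 1 and dKO clone 3. At the right, markers give the median and grey lines reach to the 95th percentile of 1349 olfactory and vomeronasal receptor transcripts in the same libraries; Axin2 lies inside these lines in each clone, while Wnt7b, Lgr4, Wnt4 and Znrf3 lie far above them.

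Wnt9b had the most uneven levels of the 3 ligands. Its values were 1.27, 2.88 and 5.09 CPM in control clones 1, 2 and 3, against 10.95, 14.2 and 6.43 CPM in the dKO clones, in the same order. The groups did not overlap, though dKO clone 3 lay close to control clone 3, and the control clones differed 4.00-fold among themselves. The means were 3.08 ± 1.92 and 10.5 ± 3.90 CPM (SD, n = 3 each). The fitted difference was 3.70-fold higher in dKO clones with a 95% interval of 1.84 to 7.44, a log2 fold change of 1.89 (SE 0.46) that did not pass over all genes (limma-trend, Benjamini-Hochberg adjusted p = 0.213). Between 46 and 448 reads per library lie behind these values.

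Rnf43, the ubiquitin ligase that lowers Frizzled at the cell surface, had 5.01, 2.95 and 3.73 CPM in control clones and 11.1, 9.03 and 7.49 CPM in dKO clones, in clone order. The lowest dKO value was above the highest control value, and both groups were tighter than for Wnt9b. The means were 3.89 ± 1.04 and 9.20 ± 1.80 CPM (n = 3 each), a fitted 2.37-fold difference with an interval of 1.56 to 3.58. On the log2 scale this was 1.24 (SE 0.27) and again missed the threshold over all genes (limma-trend adjusted p = 0.157). By unadjusted p, Rnf43 ranked 84 and Wnt9b 132 of the genes tested.

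**Figure D2:**
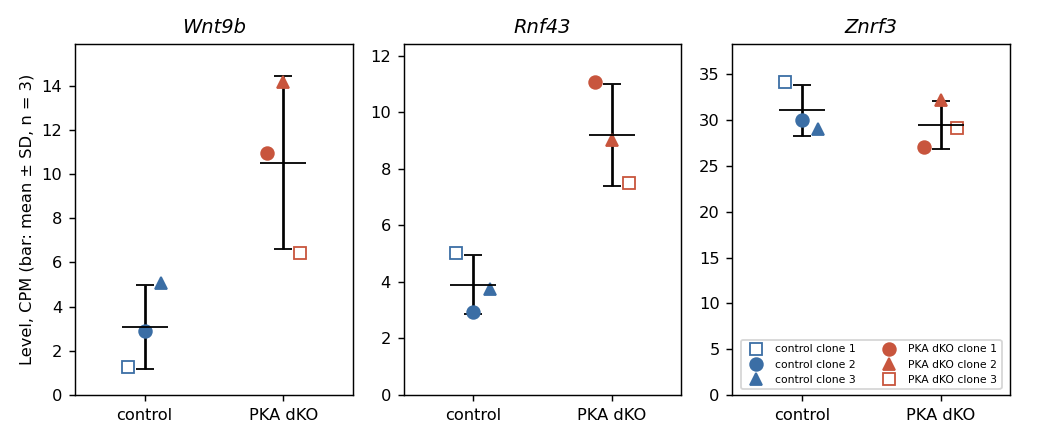
Levels of Wnt9b, Rnf43 and Znrf3 in CPM in 3 control and 3 PKA dKO clones, with a point per clone and a bar for mean ± SD. The groups are apart for Wnt9b (up to 5.09 against 6.43 and above) and Rnf43 (up to 5.01 against 7.49 and above), and they overlap for Znrf3.

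With limma-trend over the 6 clones, 0 of the 10 genes passed an adjusted p of 0.05, where 0.168% of all genes tested did; 2 had an unadjusted p under 0.05, both higher in dKO clones, where 6.24% of all genes tested had one (400 higher and 641 lower), and edgeR's quasi-likelihood test also called 0. DESeq2 called both Wnt9b (adjusted p = 0.00664) and Rnf43 (0.00536) higher, as it did 0.45% of the genes it gave an adjusted p. The authors' deposited table lists 6 of the 10 and gives Wnt9b a log2 fold change of 1.74 (false discovery rate 0.00488) and Rnf43 1.24 (0.000662); 0.981% of its transcripts are higher in dKO at a rate under 0.05. Both also passed with control clone 1 and dKO clone 3 set aside, where 1.53% of genes were called higher. The log2 fold changes there were 1.70 (limma-trend adjusted p = 0.000159) for Wnt9b and 1.58 (0.000342) for Rnf43. That pair was picked from a split seen in these same libraries. Its dKO clone 3 had the lowest dKO value of both genes. Control clone 1 had the highest control value of Rnf43 but the lowest of Wnt9b. These lower adjusted p-values are therefore no separate support. Over 16 alternatives Wnt9b passed in 5, its adjusted p running from 0.000159 to 0.638, and Rnf43 passed in 4, from 0.000342 to 0.568. All of these alternatives reuse the same 6 libraries. Each tally includes the fit with clone number as a block, although the labels do not say that these numbers pair the clones. The sign was positive in each of these 16 for both genes. Because the groups did not overlap, leaving out clones could hardly turn it, so the sign is no separate support.

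Single libraries changed these calls. Wnt9b passed without control clone 3, with a log2 fold change of 2.35 (limma-trend adjusted p = 0.0306, 0.0523% of genes called higher). Rnf43 passed without control clone 1, at 1.44 (limma-trend adjusted p = 0.0229, 0.464% called higher). Each clone left out was the control with the highest value of that gene (5.09 and 5.01 CPM), so leaving it out widens the difference. With the library split as a term, Wnt9b passed (adjusted p = 0.0256; 0.12% called higher) and Rnf43 did not (0.0821). In dKO clone 3 against control clone 1, a single pair with no replicate check, the log2 difference was 2.29 for Wnt9b but 0.58 for Rnf43. The 2 of 10 genes with all dKO values above all control values compare with 5.15% of genes tested, and 0 of 10 had all dKO values below, against 5.67%.

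**Figure D3:**
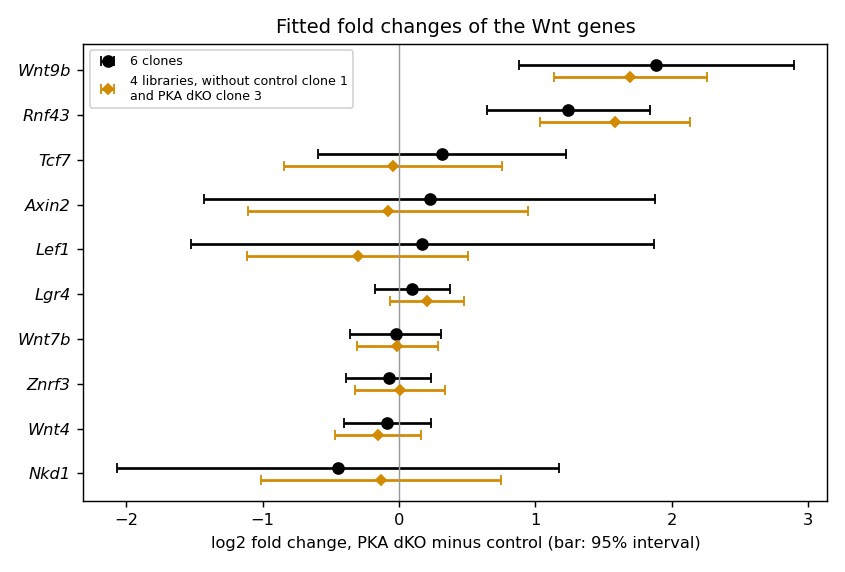
Fitted log2 fold change (PKA dKO minus control) of the 10 genes with 95% intervals, over all 6 clones (black) and over the 4 libraries that remain without control clone 1 and dKO clone 3 (orange). Wnt9b and Rnf43 have intervals above 0 in both fits, and the other 8 genes have intervals that include 0 in both.

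The summed levels of 2 marker lists of other cell types did not overlap between the groups. The 6 urothelial markers summed to 289 to 336 CPM in the control group against 137 to 148 CPM, and the 7 proximal-tubule markers found summed to 313 to 410 and 700.4 to 868 CPM, nearly all of it Lrp2. Limma-trend called 2 of the 6 urothelial markers lower, with a list median log2 fold change of -1.01, where it called 0.168% of all genes tested in either direction. It called 1 of the 7 proximal-tubule markers higher, while 4 of the 7 had a negative sign and the list median was -0.04. Their part in the levels of Wnt9b and Rnf43 was not tested. Wnt9b (ENSMUSG00000018486.2) lies on the minus strand of chromosome 11 at 103727364 to 103749821 with 4 exons, and Rnf43 (ENSMUSG00000034177.15) on the plus strand of the same chromosome at 87663087 to 87735538 with 10 exons (GRCm38, transcript ends as deposited, exons from GENCODE M21). No exon of either counted transcript overlaps an exon of another M21 gene, on either strand. With each library's chromosome medians removed, the log2 fold changes were 1.86 for Wnt9b and 1.22 for Rnf43.

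The 250 bases before the start of the counted transcript are shown for these 2 genes, because their groups did not overlap, and for Axin2, whose level is the usual readout of beta-catenin activity. They are RefSeq-based sequences of GRCm38.p6, written 5′ to 3′ on the strand of the gene, and capitals mark CG dinucleotides.
Wnt9b, chr11:103749822-103750071, minus strand: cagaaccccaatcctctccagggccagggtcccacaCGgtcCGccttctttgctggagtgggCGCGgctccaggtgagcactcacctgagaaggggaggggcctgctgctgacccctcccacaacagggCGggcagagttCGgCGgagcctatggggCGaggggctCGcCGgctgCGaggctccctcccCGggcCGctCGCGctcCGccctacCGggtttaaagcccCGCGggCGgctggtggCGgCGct
Rnf43, chr11:87662837-87663086, plus strand: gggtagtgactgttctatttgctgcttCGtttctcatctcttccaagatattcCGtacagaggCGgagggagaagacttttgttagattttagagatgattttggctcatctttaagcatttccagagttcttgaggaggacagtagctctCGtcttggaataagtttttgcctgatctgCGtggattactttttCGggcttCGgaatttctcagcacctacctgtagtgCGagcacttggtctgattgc
Axin2, chr11:108920099-108920348, plus strand: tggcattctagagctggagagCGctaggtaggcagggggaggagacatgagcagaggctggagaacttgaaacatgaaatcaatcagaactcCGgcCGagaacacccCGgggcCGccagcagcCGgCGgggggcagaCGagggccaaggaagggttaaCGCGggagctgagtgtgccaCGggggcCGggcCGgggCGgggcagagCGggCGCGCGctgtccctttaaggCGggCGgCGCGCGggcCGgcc
The Wnt9b and Axin2 windows hold 22 and 24 CG dinucleotides, more than 85.2% and 88.0% of all 32851 windows of this kind, and have 72.0% and 69.2% G or C. The Rnf43 window differs from them, with 8 CG dinucleotides against a median of 6 over all windows and 44.4% G or C.

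Such windows were found for 8 of the 10 genes, by symbol; Wnt7b and Znrf3 were not matched. The Nkd1 window lies 6289 bases from the start of the counted transcript and belongs to another start, and the other 7 lie within 148 bases of it. The TCF/LEF motif (ATCAAAG or TTCAAAG on either strand) is in 7.48% of all windows and in 0 of these 8. The cyclic AMP response element TGACGTCA is in 1.55% of all windows and its core TGACG, which the full element contains, in 17.8%; 0 of the 8 hold either. Only these letters in these 250 bases were searched.

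Wnt7b, the most abundant of the 10 genes, had 518, 433 and 441 CPM in control clones and 479, 390 and 506 CPM in dKO clones. The groups overlapped, with dKO clone 2 below every control clone and control clone 1 above every dKO clone. The log2 fold change was -0.02 with a 95% interval of -0.36 to 0.31, so the fitted dKO level lay between 0.78 and 1.24 times the control level. Wnt7b (chromosome 15, 85535439 to 85581821, minus strand, 4 exons) shares up to 38 exonic bases with an antisense gene, AU022754, and strand use in counting was not given in the sources used here.

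Wnt4, whose product drives the epithelial transition of nephron precursors, had 46.1, 43.3 and 45.6 CPM in control clones and 35.5, 44.4 and 48.3 CPM in dKO clones. dKO clones 1 and 3 lay below and above all control clones, so the dKO spread enclosed the control spread. Its log2 fold change was -0.09 (interval -0.41 to 0.23; limma-trend adjusted p = 1.00).

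Of 19 Wnt ligand symbols, 18 were matched, and 4 of them held 93.8% to 97.6% of the summed ligand RPKM in each clone. Wnt7b alone held 68.9% to 75.6%. Wnt7a, its closest relative, followed with 9.38% to 15.7%, then Wnt9a with 4.46% to 6.95% and Wnt4 with 4.24% to 6.31%. Wnt9b held 0.13%, 0.36% and 0.63% of the sum in the control group and 1.21%, 1.87% and 0.72% in the dKO group, in clone order. By mean level it was number 7 of the ligands in control clones and number 5 in dKO clones, below Wnt4 in both. Wnt9a, the paralog of Wnt9b, had a mean of 37.0 ± 11.6 CPM for control and 41.0 ± 2.03 CPM for dKO (log2 fold change 0.19, SE 0.20). Wnt7a had 82.5 ± 24.0 and 69.8 ± 15.9 CPM (-0.22, SE 0.21). Of the 18 ligands, 11 stayed under 1 RPKM in every clone; of these, Wnt3a was at 0 reads in control clone 1 and its other values were 0.21 to 0.75 CPM.

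**Figure D4:**
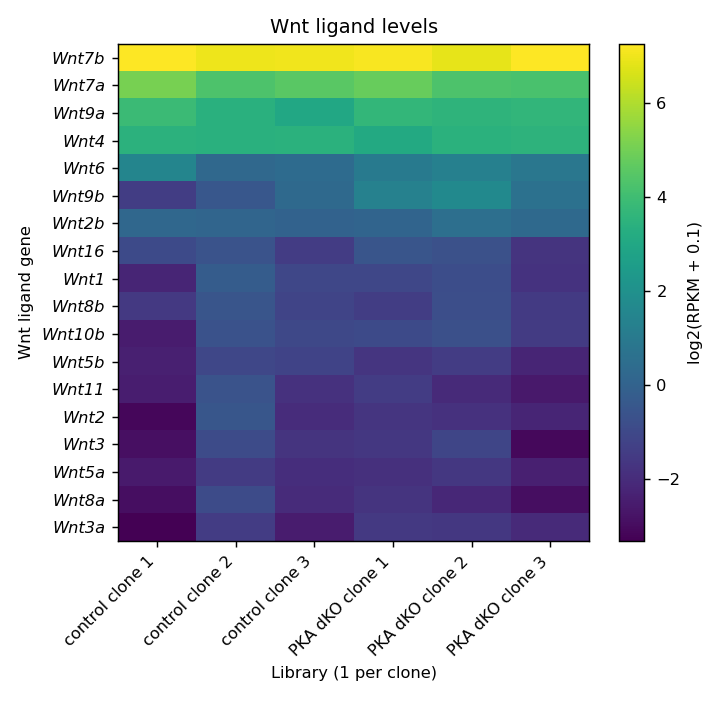
Levels of 18 Wnt ligand genes (rows, by mean level) in the 6 libraries (columns), as log2(RPKM + 0.1). Wnt7b is the brightest row in every clone and the Wnt9b row is brighter in the 3 PKA dKO columns than in the 3 control columns.

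Znrf3 and Lgr4 act at the same step as Rnf43 but did not show its difference. Znrf3, the paralog of Rnf43 with the same substrate, had 34.2, 30.0 and 29.1 CPM in control clones and 27.1, 32.2 and 29.1 CPM in dKO clones, with overlapping groups and a log2 fold change of -0.08 (interval -0.39 to 0.24). The interval of Znrf3 lies below that of Rnf43 (0.65 to 1.84), and the difference between the 2 genes was not itself tested. On the per-length scale Znrf3 was the higher of the pair in each of the 6 clones, at 4.31 to 5.44 RPKM against 0.69 to 2.58 RPKM for Rnf43. Lgr4, a receptor that takes up R-spondins, had 169, 140.4 and 141 CPM in control clones and 155, 168 and 157 CPM in the dKO group, with a log2 fold change of 0.10 (interval -0.18 to 0.37). Lgr4 was the most even of the 10 genes, with a ratio of 1.20 between the highest and the lowest clone.

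Axin2 and Nkd1 were near the lower end of what these libraries detect. Axin2 had 0.19, 1.18 and 0.83 CPM in control clones and 0.70, 1.24 and 0.39 CPM in dKO clones, from 7, 36, 36, 28, 39 and 14 reads. The groups overlapped, and control clone 1 and dKO clone 3 were the lowest of their groups. The 95% Poisson interval of 7 reads is 2.81 to 14.4, and this interval covers counting error only. The log2 fold change of 0.23 had an interval of -1.43 to 1.88, so differences of up to 3.68-fold higher or to 0.37 times the control level were not resolved. Nkd1 had 0.53, 1.67 and 1.38 CPM in control and 1.42, 1.33 and 0.22 CPM in dKO clones (log2 fold change -0.44, interval -2.07 to 1.18), again lowest in control clone 1 and dKO clone 3.

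Lef1 showed the same split of libraries and Tcf7 did not. Lef1, a TCF/LEF factor that Wnt signalling induces, had 0.28, 2.23 and 2.33 CPM in control clones and 1.34, 2.47 and 0.67 CPM in the dKO group, with a log2 fold change of 0.17 (interval -1.53 to 1.87). Without control clone 1 and dKO clone 3 its log2 fold change was -0.30 (interval -1.11 to 0.50), and that of Axin2 was -0.08 (interval -1.10 to 0.95). Tcf7, which encodes TCF1, had 1.36, 2.65 and 1.89 CPM in control and 1.54, 3.01 and 2.86 CPM in dKO clones (0.32, interval -0.59 to 1.23). Here dKO clone 3 was close to the highest value. Up to 104 exonic bases of Axin2 overlap the antisense gene Gm11670 and up to 1208 of Lef1 overlap Gm43352, so part of their reads may belong to those genes.

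As a reference for such low levels, 1349 transcripts of olfactory and vomeronasal receptors, which sensory neurons use, were read on the same RPKM scale. Their median was 0.0112 and 0.0113 RPKM in control clone 1 and dKO clone 3 and 0.0994 to 0.183 RPKM in the other 4 libraries. Axin2 exceeded 59.0% to 82.3% of these transcripts, depending on the clone, Nkd1 59.5% to 91.5% and Lef1 79.8% to 99.7%. Tcf7 exceeded at least 99.0%, Rnf43 96.2% and Wnt9b 95.3% in each clone, and Wnt7b, Wnt4, Znrf3 and Lgr4 exceeded all of them. The 8 leukocyte markers, of interest because Tcf7 and Lef1 are abundant in T cells, summed to 3.85 and 2.10 CPM in control clone 1 and dKO clone 3 and to 7.22 to 14.8 CPM in the other 4, with Cd3g at 0 in the former pair. The 6 fibroblast markers found summed to 1.77 to 7.66 CPM for control and 1.82 to 5.61 CPM for dKO, and the 5 endothelial ones to 1.66 to 5.50 and 0.98 to 5.29 CPM, again lowest in these 2 libraries. The part of these sources in the levels of Axin2, Nkd1 and Lef1 was not tested.

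The genes whose pattern over the 6 clones was most like that of Axin2, among 12463 with a mean of at least 1 CPM, were Pappa, Sbk3 and Cadm2, with Pearson's r on the log2 scale of 0.998, 0.996 and 0.996. Pappa, a secreted protease, had 0.19 and 0.42 CPM in control clone 1 and dKO clone 3 and 0.97 to 2.25 CPM in the other libraries, and Cadm2, a neuronal adhesion gene, 0.36 and 0.67 against 1.62 to 2.88 CPM. An r above 0.9 with Axin2 was found for 665 genes. All 3 were lowest in the same 2 libraries as Axin2. Over the other 4 libraries alone r was 0.996 for Pappa, 0.968 for Sbk3 and 0.999 for Cadm2. This is a description of 4 points with no p. Because the 3 genes were picked by r over all 6 libraries, high values over 4 of them follow in part from that choice.

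The rest of the pathway was read from 8 lists with 128 symbols, of which 118 were matched and 114 tested, the 10 genes included. Limma-trend and edgeR's quasi-likelihood test called 0 of the 114; 3 had an unadjusted p under 0.05 and were higher in dKO clones and 5 were lower, 7.02% in all against 6.24% of all genes tested. Their median log2 fold change was -0.04 against -0.00 over all genes. All dKO values were above all control values for 5.26% and below for 7.89%, against 5.15% and 5.67% of all genes tested. Within the 4 libraries 4 were higher (Wnt9b, Rnf43, Fzd2 and Lgr6) and 1 lower (Myc). Of 16637 genes tested both there and in the main fit, 264 were called higher and 253 lower. DESeq2 called Wnt9b, Rnf43 and Fzd2 higher and 0 lower, where it called 59 genes higher (0.45%) and 150 lower among all genes.

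Among the 16 Frizzled receptors and coreceptors tested, 1 was higher and 3 were lower at an unadjusted limma-trend p under 0.05 (median -0.12). This was 25% against 6.24% of all genes tested, in a list chosen with results known. All dKO values were below all control values for 25%, against 5.67%, and above for 12.5%, against 5.15%. Fzd2 had 46.4, 38.8 and 41.2 CPM in control clones and 68.1, 64.1 and 55.1 CPM in dKO clones, with no overlap (log2 fold change 0.57, SE 0.14; limma-trend adjusted p = 0.214). It is listed as higher in the authors' deposited table (false discovery rate 0.0129), which lists Fzd6 as lower (0.0239; log2 fold change -0.47). The coreceptor genes Lrp6 (262 ± 50.1 to 199 ± 30.4 CPM, log2 fold change -0.39) and Lrp5 (165 ± 28.2 to 202 ± 44.7 CPM, 0.28) had opposite signs, neither past the threshold.

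In the list of R-spondins, LGR receptors and ligases, the median over 9 tested was -0.08. Rnf43 was the 1 gene with an unadjusted p under 0.05, 11.1% of the list against 6.24% of all genes tested. Lgr5, the stem-cell marker, had 1.26 ± 1.00 and 0.84 ± 0.44 CPM, and the R-spondin gene Rspo2 1.23 ± 0.70 and 0.59 ± 0.44 CPM, as low as Axin2. Lgr6 had 28.3, 9.23 and 8.50 CPM in control and 17.2, 13.2 and 7.52 CPM in dKO clones, so control clone 1 alone was far above the rest. Its log2 fold change was -0.13 over 6 clones, 0.43 without control clone 1, and 0.77 in the 4 libraries.

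The 21 genes of the destruction complex and Dishevelled had a median of -0.01, with 0 at an unadjusted p under 0.05, and the 15 TCF/LEF factors and partners one of -0.05, also with 0. DESeq2 called 0 in either list. Ctnnb1, which encodes beta-catenin, had a mean of 740 ± 154 CPM for control and 761 ± 66.3 CPM for dKO, and Tnks2, a tankyrase that marks axins for degradation, 632 ± 95.8 and 713 ± 62.0 CPM. Dvl3, a Dishevelled gene, was at a log2 fold change of -0.49 (SE 0.24; limma-trend adjusted p = 0.858). Aes, a short Groucho-related corepressor, had 408 ± 7.66 and 395 ± 54.0 CPM, and the chromatin remodeller gene Chd8 227 ± 47.7 and 189 ± 28.5 CPM.

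Of 25 Wnt target genes tested, Rnf43 was higher and Myc and Ephb3 were lower at an unadjusted p under 0.05, and the median was -0.08. This was 12% of the list, against 6.24% of all genes tested. Ephb3, an ephrin receptor gene, had 57.6, 29.9 and 30.6 CPM among controls against 28.01, 20.2 and 20.7 CPM in dKO clones (log2 fold change -0.72, SE 0.25; limma-trend adjusted p = 0.502) and is lower in the authors' deposited table (false discovery rate 0.0274). Ccnd1, which encodes cyclin D1, had 132 ± 41.9 and 125 ± 7.42 CPM, and Ephb2 117 ± 32.1 and 120.3 ± 17.4 CPM.

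Genes of Wnt secretion and secreted antagonists gave 0 calls with limma-trend and DESeq2 and 0 at an unadjusted p under 0.05 among 5 and 17 tested. The secretion gene Wls was not matched. Many antagonists were as low as Axin2, such as Dkk1 (mean 0.82 CPM over 6 clones, log2 fold change SE 0.80) and Sfrp1 (0.77 CPM, SE 0.65). The lack of calls says little about these low genes. The acyltransferase gene Porcn, needed for Wnt lipid modification, had 12.1 ± 1.90 and 9.69 ± 0.68 CPM (log2 fold change -0.31), and the retromer gene Vps35 319 ± 83.7 and 273 ± 53.4 CPM. Tmed5, a cargo receptor gene, had 90.7 ± 8.13 and 91.5 ± 3.93 CPM. Kremen1, a Dickkopf receptor, had 83.9 ± 18.1 and 77.4 ± 13.1 CPM, its paralog Kremen2 1.55 ± 0.44 and 0.80 ± 0.17 CPM, and Tpbg, a membrane inhibitor of Wnt signalling, 42.7 ± 6.44 and 45.6 ± 3.41 CPM.

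**Figure D5:**
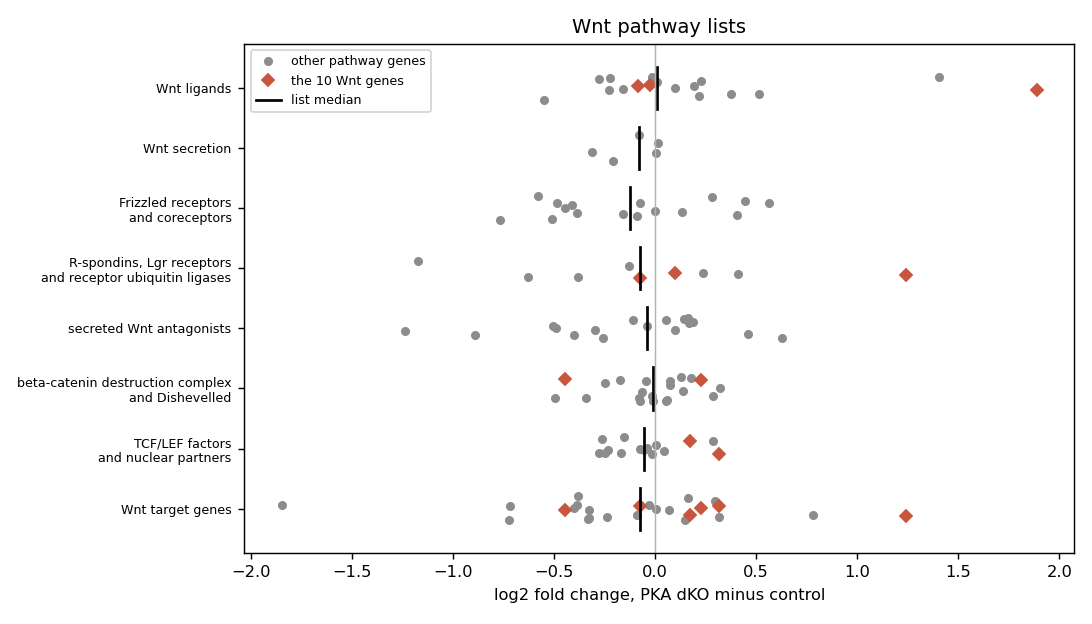
Log2 fold change (PKA dKO minus control) of each tested gene in 8 Wnt pathway lists; red diamonds are the 10 Wnt genes, grey points the other genes, black lines the list medians, and a gene in several lists appears in each. The medians lie between -0.12 and 0.01, and Wnt9b (1.89) and Rnf43 (1.24) lie at the right.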

How the data were processed

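Stranded libraries were made by random priming after removal of ribosomal RNA (input 262 ng), per the labels' protocols. GRCm38.p5 and the tools edgeR, HOMER 4.8, STAR 2.5.2a and SAMtools stand, without roles, in the submitters' processing notes. The deposited read columns are a signal: per the values, the authors scaled reads to 1 common total. Dividing by each library's step gave whole reads for at least 99.995% of values (tolerance 0.01 scaled reads). The authors' deposited FPKM values and transcript lengths stand in the same table; only the lengths were used, for RPKM. The authors' deposited comparison table, named as edgeR output, gives log2 fold changes, p-values and false discovery rates. Which edgeR test gave them was not stated in the sources used here.

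Groups were compared by limma-trend in R 4.3.3 (limma 3.58.1) on log2 of TMM-adjusted scaled reads (edgeR 4.0.16) with a pseudocount of 1, which understates changes of low genes. Transcripts had to pass filterByExpr on recovered reads (minimum 10, total 15). P-values were Benjamini-Hochberg adjusted over all 16683 genes. DESeq2 1.42.0 and edgeR's quasi-likelihood test on recovered reads were alternatives. CPM and RPKM use TMM-adjusted totals.

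In simulated data for this comparison (15920 genes), limma called 11 of 67 planted changes of 1.5-fold, 45 of 67 of 2-fold, and 59 of 66 of 4-fold. Of its 124 calls, 9 were false. Counts were drawn independently around 1 mean per gene, without the split of control clone 1 and dKO clone 3. Changes were planted only in genes with a mean above 1 CPM, and Axin2 had 0.75 CPM. These rates need not hold for the real libraries.

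The 10 genes and all lists were chosen with earlier results of these data known. Named besides them were, per list, the 2 genes with the highest mean CPM, the gene with the lowest p and any gene past the threshold; and the 3 genes most like Axin2. Fzd6, Myc and the marker genes were named after their values were seen.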

Additional observations from a re-analysis of the deposited data

How the results depend on the processing

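The number of genes past the threshold was 28 in the main fit. It was 209 with the DESeq2 test, 518 in the 4 libraries that remain without control clone 1 and dKO clone 3, 71 with the library split as a term, and 11 to 146 when each clone was left out. Of the 10 Wnt genes, 0 passed in the main fit, 2 with the DESeq2 test, 2 within the 4 libraries, 1 with the split as a term, and 0 to 1 with a clone left out. In the fit with the clone number as a replicate block, 196 genes and 2 of the 10 (Wnt9b, adjusted p = 0.0137; Rnf43, 0.0203) passed. The labels do not say that the numbers pair the clones. Deviations of same-numbered clones had correlations of -0.36, 0.64 and -0.34, and those of control clone 1 and dKO clone 3 had 0.66. Such values follow the library split, so they cannot show whether same-numbered clones were handled together. Why the counts moved was not tested.

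Signs turned mostly for values near 0. Within the 4 libraries the log2 fold change was -0.077 for Axin2, -0.30 for Lef1, -0.044 for Tcf7, 0.0098 for Znrf3, 0.055 for Aes, 0.24 for Ccnd1, 0.037 for Chd8, 0.77 for Lgr6 and 0.11 for Wnt7a. Lef1 was at -0.11 with edgeR's quasi-likelihood test and -0.12 with DESeq2. With chromosome medians removed, Wnt7b was at 0.11 and Tmed5 at -0.022. Leaving out each clone gave -0.46 to 0.69 for Axin2, -0.76 to 0.66 for Lef1, -0.92 to 0.35 for Nkd1, -0.17 to 0.044 for Wnt4 and -0.093 to 0.09 for Wnt7b. For genes outside the 10 it gave -0.15 to 0.050 for Aes, -0.29 to 0.19 for Ccnd1, -0.032 to 0.23 for Ctnnb1, -0.049 to 0.29 for Ephb2, -0.21 to 0.066 for Kremen1, -1.002 to 0.22 for Lgr5, -0.44 to 0.43 for Lgr6, -0.026 to 0.092 for Tmed5, -0.0051 to 0.22 for Tpbg, -0.40 to 0.0012 for Wnt7a and -0.026 to 0.43 for Wnt9a. Counting error is widest for Axin2, Nkd1 and Lef1, with as few as 7, 8 and 10 reads in control clone 1 or dKO clone 3; these were not the shallowest libraries, and control clone 2, the shallowest, had 36, 51 and 68 reads on them.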
